A study of Homo sapiens with 2 samples.

Results

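The microRNAs (miRNAs) described here are those of 9 neural families, miR-9, miR-124, miR-128, miR-7, miR-129, miR-138, miR-219a, miR-132 and miR-212, measured in A375 cells, an established human melanoma line. They were chosen by the name of the hairpin precursor, with both arms taken: every row whose precursor is a numbered copy of mir-9, mir-124, mir-128, mir-7, mir-129, mir-138 or mir-219a, or is mir-132 or mir-212. This gave 27 rows of 1546, from 15 hairpins of 1095 and 20 mature names of 1497, in 8 of the 9 families. No row of mir-124, of mir-9-2, of the 3p arm of mir-138-2 or of the 5p arm of mir-129-2 was among those used here, and these are not analysed. The study concerns miRNAs that act on the BRAF-X1 transcript. Its small RNA sequencing holds 1 group of 2 libraries (replicates 1 and 2): 1000000 cells were plated in 10 cm dishes, given DMSO, the vehicle, 24 h later and collected after 48 h of exposure. Nothing in the labels says more of how the replicates arose, so the spread between them may be technical, and no condition was compared.

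A miRNA hairpin is cut into a duplex of a 5p and a 3p arm. One arm, the guide, usually stays in the silencing complex and pairs with messenger RNAs mainly through its seed, bases 2 to 8, while the other, the passenger, is usually lost. Several neural guides are encoded by more than 1 hairpin, and their identical sequence does not show which copy was transcribed, whereas the passenger arms often differ. Melanocytes arise from the neural crest, an embryonic tissue that also gives rise to peripheral neurons and glia. miR-124, miR-9 and miR-128 are known for high levels in brain, miR-132 and miR-212 for induction by neuronal activity through the factor CREB, miR-138 for its part in dendritic spines, miR-219a for the maturation of oligodendrocytes, and miR-7 for its many binding sites on the circular RNA CDR1as.

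The guides of the 8 families with rows are shown first because their seeds define what each can pair with. RefSeq (GRCh38.p14) gave a sequence for all 20 mature names, and the seed is in capitals. The prefix hsa-, for human, is part of each name in the file and is left out elsewhere except where a guide's level is first given.
hsa-miR-9-5p: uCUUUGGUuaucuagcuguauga
hsa-miR-128-3p: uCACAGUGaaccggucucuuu
hsa-miR-138-5p: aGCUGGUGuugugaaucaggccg
hsa-miR-7-5p: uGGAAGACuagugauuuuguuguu
hsa-miR-132-3p: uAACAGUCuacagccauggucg
hsa-miR-212-3p: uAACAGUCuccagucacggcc
hsa-miR-219a-5p: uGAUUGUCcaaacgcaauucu
hsa-miR-129-5p: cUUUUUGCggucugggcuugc
The 20 names carried 16 different seeds. Among the guides only miR-132-3p and miR-212-3p shared one, AACAGUC, and the remaining shared seeds joined the passenger arms of copies of 1 family. Outside the families, a single name in the table, miR-6766-3p at 0.277 and 0.389 RPM, had the seed of a member, that of miR-219a-5p.

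The pairs of passenger arms are shown next because their differing bases, in capitals, are what tells the copies apart. Positions are counted from 1 at the 5′ end, with the base of copy 1 given first.
miR-7-1-3p: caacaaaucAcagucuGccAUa
miR-7-2-3p: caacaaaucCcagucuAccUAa
miR-128-1-5p: CggggccgUAGcacuguCUgaga
miR-128-2-5p: GggggccgAUAcacuguACgaga
miR-219a-1-3p: agaGuugAgUcuggacGucCCG
miR-219a-2-3p: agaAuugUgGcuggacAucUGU
miR-129-1-3p: aagcccuuaccccaaaaagUau
miR-129-2-3p: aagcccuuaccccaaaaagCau
The miR-7 pair differed at 4 of 22 bases, the miR-128 pair at 6 of 23 and the miR-219a pair at 7 of 22. The miR-129 pair differed at 1 base only, U20C, near the 3′ end, so a read that stops before it fits both copies. Both copies of miR-9 listed here have the same 3p arm, and their passengers do not tell them apart.

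Levels are in RPM, reads per 1000000 read assignments, and where 1 mature name had several hairpins its highest copy was used. The libraries held 10816826 and 15428446 read assignments, so 1 read was worth 0.0924 and 0.0648 RPM and 10 RPM stood for 108 and 154 reads. Copies made by PCR are not independent molecules, so intervals and tests here take in counting error and no other. The 20 names together made up 0.374% ± 0.0157 (SD, n = 2) of the RPM left after copies were reduced to 1 value. At a level of 10 RPM or more in both libraries stood 9 of the 20, against 22.4% of all mature names, and 3 of the 9 were above 100 RPM. The median of the 20 means was 9.69 RPM, beside 0.588 RPM over all 1497 names. In RNA from a bulk culture, fewer cells that express a miRNA and less of it per cell cannot be told apart.

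**Figure D1:**
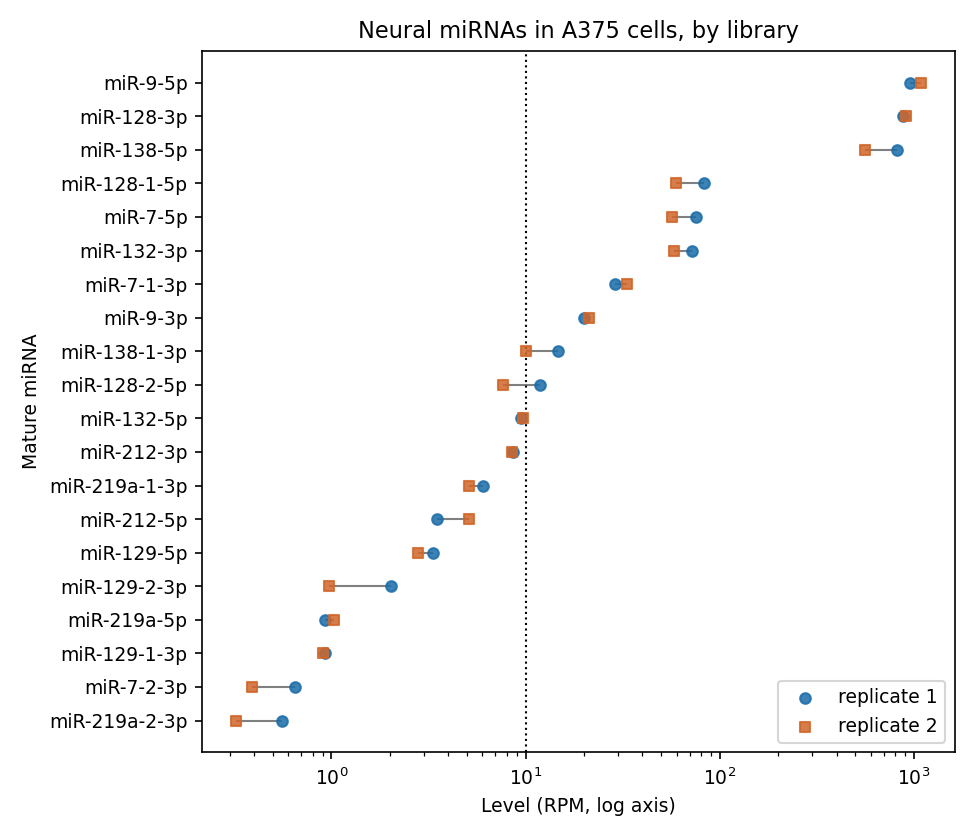
Level of each neural mature miRNA in RPM (log axis) in replicate 1 (circles) and replicate 2 (squares), with a grey line joining the libraries and a dotted line at 10 RPM. miR-9-5p, miR-128-3p and miR-138-5p lie between 559 and 1082 RPM, and every other name lies below 100 RPM.

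Guides of 3 families held nearly all of this signal. hsa-miR-9-5p, a regulator of neural progenitors, had 954 RPM in replicate 1 and 1082 RPM in replicate 2. hsa-miR-128-3p, a brain-enriched miRNA, had 874 and 915 RPM. hsa-miR-138-5p had 815 and 559 RPM. Together they made up 88.5% and 90.1% of the RPM of the 20 names. miR-9-5p was above miR-128-3p in both libraries, by 1.09-fold and 1.18-fold, and their values did not overlap. miR-128-3p was above miR-138-5p by 1.07-fold and 1.64-fold. The library values of this pair did not overlap either, but the ranges of mean ± SD did. In the list of all names miR-9-5p was number 66 by mean. The names next to it in level were miR-320a (1232 and 953 RPM) and miR-425-5p (954 and 1222 RPM) above, and miR-345-5p (958 and 868 RPM) and miR-128-3p below, a likeness in level over 2 libraries and nothing more.

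A second tier lay about an order of magnitude lower. hsa-miR-7-5p had 75.4 and 56.9 RPM, and hsa-miR-132-3p had 72.3 and 58.5 RPM. These guides were matched by a passenger arm, miR-128-1-5p, at 83.4 and 59.7 RPM. The values of the 3 overlapped, so their order was not resolved, while all of them stood clear of miR-138-5p above and of miR-7-1-3p below. The other passengers at 10 RPM or more were miR-7-1-3p (29.03 and 33.2 RPM), miR-9-3p (19.97 and 21.3 RPM) and miR-138-1-3p (14.6 and 10.1 RPM).

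The remaining 11 names were under 10 RPM in at least 1 library. miR-128-2-5p had 11.9 and 7.65 RPM, miR-132-5p 9.52 and 9.66 RPM, and hsa-miR-212-3p 8.60 and 8.56 RPM. miR-212-5p had 3.51 and 5.12 RPM. The brain miRNA hsa-miR-129-5p had 3.33 and 2.79 RPM, or 36 and 43 reads. miR-219a-5p, the oligodendrocyte guide, had 0.924 and 1.04 RPM, or 10 and 16 reads, whereas its partner miR-219a-1-3p had 65 and 79. The fewest reads were those of miR-7-2-3p (7 and 6) and miR-219a-2-3p (6 and 5), where a difference between libraries was not detectable at this depth.

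The copy-specific passengers were then used to ask which genomic copy of a family was active. A share of passenger reads is not a measure of transcription, which was not measured here. For miR-7 nearly all such reads named 1 copy. mir-7-1 gave 314 of 321 passenger reads in replicate 1, or 97.8% (95% Clopper-Pearson interval 95.6 to 99.1), and 512 of 518 in replicate 2, or 98.8% (97.5 to 99.6). mir-7-2 gave 7 and 6. The third copy, mir-7-3, had no row for a passenger arm among those used here, so its part was not measured. In GRCh38 with the GENCODE 29 annotation, MIR7-1 occupies bases 83969748 to 83969857 of the minus strand of chromosome 9. There it overlaps an annotated exon of HNRNPK, on the same strand, a gene for an RNA-binding protein made in most cells. MIR7-2 (chromosome 15, 88611825 to 88611934) overlaps no annotated gene but the miRNA gene MIR3529 on the opposite strand. The sources here do not give strand use in counting, so reads of mir-7-2 and mir-3529 may not be separated. No reads of mir-3529 were added to the shares above.

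For miR-128, mir-128-1 gave most of the passenger reads and mir-128-2 a measurable rest. In replicate 1 miR-128-1-5p had 902 of 1031 reads, 87.5% (85.3 to 89.4), and in replicate 2 921 of 1039, 88.6% (86.6 to 90.5). The mir-128-1 arm was thus 6.99-fold and 7.81-fold higher, with overlapping intervals between libraries. MIR128-1 lies in an intron of R3HDM1 on chromosome 2 from 135665397 to 135665478. MIR128-2 lies in an intron of ARPP21, a gene known for its expression in brain, on chromosome 3 from 35744476 to 35744559, and its passenger had 129 and 118 reads.

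The scarce miR-219a reads were also unequal between copies. mir-219a-1 gave 65 of 71 passenger reads, 91.5% (82.5 to 96.8), and 79 of 84, 94.0% (86.7 to 98.0). MIR219A1 lies on chromosome 6 from 33207835 to 33207944 with no other gene annotated over it. MIR219A2 (chromosome 9, 128392618 to 128392714) overlaps an exon of the long noncoding gene AL359091.1 and, on the opposite strand, MIR219B, whose miR-219b-3p had 21 and 22 reads and miR-219b-5p 9 and 14. Whether strand was used in counting is not given in the sources here, so reads of mir-219a-2 and mir-219b may not be separated. With the reads of miR-219b-5p, which lies opposite the passenger, added to mir-219a-2, the share of mir-219a-1 was 81.25% and 80.6%. For miR-129 the copies were not separated. mir-129-2 gave 22 of 32 reads, 68.8% (49.99 to 83.9), and 15 of 29, 51.7% (32.5 to 70.6). An even split of these reads was just inside the interval in replicate 1 and well inside it in replicate 2. For miR-138 only the mir-138-1 passenger had a row, with 158 and 156 reads, so no share was formed. MIR138-1 lies on chromosome 3 from 44114212 to 44114310, outside other annotated genes.

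**Figure D2:**
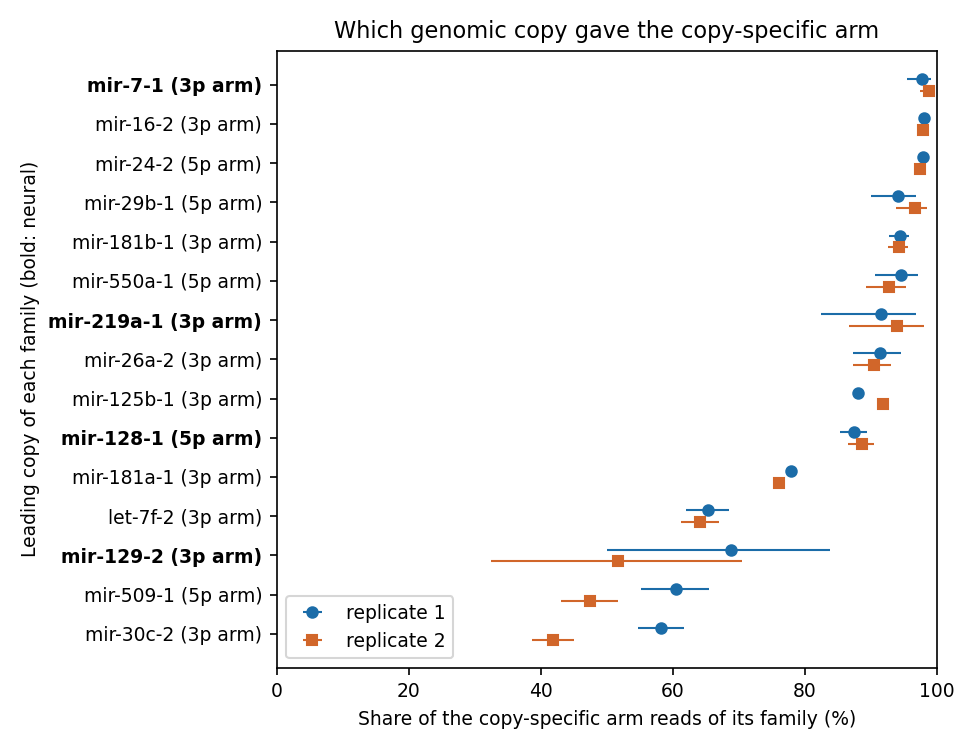
Share (%) of the copy-specific arm reads that came from the leading copy of each family, in replicate 1 (circles) and replicate 2 (squares), with 95% Clopper-Pearson intervals and neural families in bold. mir-7-1 has the highest mean share of the 15 families at 98.3%, mir-219a-1 and mir-128-1 lie at 92.8% and 88.1%, and mir-129-2 lies near an even split at 60.2%.

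Unequal shares of copy-specific arm reads were common in these cells. The table held 15 families with copy-specific arms and at least 10 reads in each library, and 11 of them were not neural. The leading copy of the 11 held 50.04% to 98.0% of the reads with a median of 91.0%, and in 7 of them it held 80% or more. The leading copies of miR-7, miR-219a, miR-128 and miR-129, at 98.3%, 92.8%, 88.1% and 60.2%, were number 1, 7, 10 and 13 of the 15, and nothing here sets them apart from the rest.

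Reads of miR-9-5p, miR-128-3p, miR-138-5p and miR-7-5p were listed at nearly the same level on each copy, as if most were assigned to all of them, and those of the scarce miR-219a-5p were not. Of 34 names in the whole table with several hairpins and a mean of at least 10 RPM, the lowest copy of 27 reached 90% or more of the highest. The reads listed on 1 copy beyond those of another are given below, but why they were listed there was not tested. The guides with the 3 bases on either side in each hairpin, in lower case, show where copies begin to differ.
mir-128-1, miR-128-3p: uucUCACAGUGAACCGGUCUCUUUuuc
mir-128-2, miR-128-3p: gucUCACAGUGAACCGGUCUCUUUccc
mir-138-1, miR-138-5p: ggcAGCUGGUGUUGUGAAUCAGGCCGuug
mir-138-2, miR-138-5p: ugcAGCUGGUGUUGUGAAUCAGGCCGacg
mir-9-1, miR-9-5p: uuaUCUUUGGUUAUCUAGCUGUAUGAgug
mir-9-3, miR-9-5p: cucUCUUUGGUUAUCUAGCUGUAUGAgug
The copies of miR-128 and of miR-138 differ from the first base after the guide. Those of miR-9 share the next 3 bases and differ before the 5′ end.

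mir-128-1 was assigned 367 and 773 more reads of miR-128-3p than mir-128-2, which is 3.88% and 5.47% of its reads. mir-138-1 exceeded mir-138-2 by 161 and 157 reads of miR-138-5p, or 1.83% and 1.82%. mir-7-1 exceeded mir-7-3, the lowest of 3 copies, by 18 and 21 reads of miR-7-5p. For miR-219a-5p, mir-219a-1 had 10 and 16 reads and mir-219a-2 had 4 and 5. In miR-7, miR-128 and miR-219a the copy with the excess was also the one that led in passenger reads. The copies of miR-9 differed least: mir-9-3 exceeded mir-9-1 by 2 reads and 1 read of miR-9-5p, out of 10315 and 16698, and mir-9-1 exceeded mir-9-3 by 4 and 5 reads of miR-9-3p. Neither arm told which of them was active. MIR9-1 lies in an intron of C1orf61 on chromosome 1 from 156420341 to 156420429, and MIR9-3 in an intron of MIR9-3HG, a long noncoding gene, on chromosome 15 from 89368017 to 89368106. The table gives no read ends, so whether the extra reads ran past the shared sequence was not measured.

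miR-132 and miR-212 come from neighbouring hairpins, 262 bases apart on the minus strand of chromosome 17 (MIR132 from 2049908 to 2050008, MIR212 from 2050271 to 2050380), and no other gene was annotated over either. Their guides share the seed but not the level. miR-132-3p was 8.41-fold above miR-212-3p in replicate 1 and 6.83-fold in replicate 2. The passengers lay closer together, with miR-132-5p 2.71-fold and 1.89-fold above miR-212-5p.

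How strongly a family favoured its guide differed widely among the 8. The reads of the guide were set against those of all passengers of its family that had a row. miR-138-5p led its passenger by 55.8-fold and 55.3-fold, and miR-9-5p by 47.8-fold and 50.8-fold. miR-128-3p led by 9.17-fold and 13.6-fold, and miR-132-3p by 7.59-fold and 6.05-fold. The value for miR-138 lacks the passenger of mir-138-2 and can be too high. Summing the copies of the guides, which may count most reads more than once, gave 110.6-fold and 109.6-fold for miR-138 and 17.99-fold and 26.4-fold for miR-128.

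The 4 other families were nearer to balance or reversed. miR-7-5p led by 2.54-fold and 1.69-fold, with 71.8% (69.1 to 74.4) and 62.9% (60.3 to 65.4) of the reads of both arms. With its 3 copies summed, which may count most reads more than once, the lead was 7.53-fold and 5.01-fold. miR-212-3p led by 2.45-fold and 1.67-fold. miR-129-5p held 52.9% (40.4 to 65.2) and 59.7% (47.5 to 71.1), which includes an even split in both libraries. In miR-219a the arm known as the guide was the lower: miR-219a-5p held 12.3% (6.08 to 21.5) and 16.0% (9.43 to 24.7), on 81 and 100 reads of both arms.

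**Figure D3:**
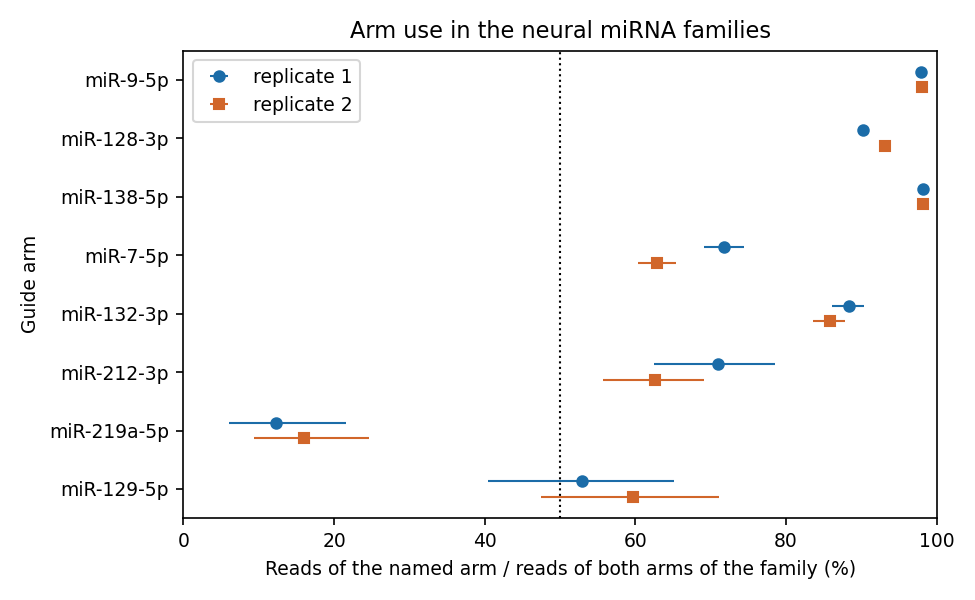
Reads of the guide arm as a percentage of the reads of both arms in each neural family, for replicate 1 (circles) and replicate 2 (squares), with 95% Clopper-Pearson intervals and a dotted line at 50%. miR-9-5p and miR-138-5p lie near 98%, miR-7-5p between 62.9% and 71.8%, and miR-219a-5p is the 1 arm whose intervals lie wholly under the line.

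Among hairpins with a row for both arms, the measured fold between arms was larger at high levels. Hairpins lacking a row for either arm were left out. Few reads also limit the fold that can be measured at low levels, so this trend was not separated from depth. Among hairpins whose arms belong to no other hairpin, the median fold between arms was 7.37 for 111 hairpins at 1 to 10 RPM in sum. It was 11.7 for 64 at 10 to 100 RPM, 12.0 for 55 at 100 to 1000 RPM and 74.98 for 46 above that. In the class of 10 to 100 RPM, which holds mir-132 and mir-212, 21.9% of hairpins had arms less than 3-fold apart, and mir-212 was one of them. The guide shares of miR-128 and of miR-7 had intervals that did not overlap between the libraries, 2 of 8 families. Such gaps were found in 23.3% of 275 hairpins with unshared arms and at least 10 reads in each library. The 2 of 8 is near this share. The 8 are family sums and the 275 single hairpins, and their depths were not matched, so the comparison is rough.

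The libraries were compared for each name by Fisher's exact test (two-sided) on the recovered reads with Benjamini-Hochberg adjustment over 869 names. This compares 2 libraries, not conditions. Of the 20 neural names, 0 passed both an adjusted p of 0.05 and a fold above 2, against 4.6% of all names. At an unadjusted p of 0.05 in Fisher's exact test there were 9, against 40.7% of all names. With the fold limit at 1.5 there was 1, miR-128-2-5p (1.56-fold, adjusted p = 0.0024, Fisher's exact test), against 9.32% of all names. Without the fold limit 8 of 20 passed, 6 higher in replicate 1 and 2 in replicate 2, against 34.5% of all names. Among the 9 whose mean reached 10 RPM it was 7, beside 69.7% of all 346 such names. The neural names thus differed about as often as the rest.

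Of the 9 neural names at 10 RPM or more, miR-138-5p had the largest log2 ratio in size. It was lower in replicate 2, by a log2 ratio of -0.54 (adjusted p = 2.4e-134, Fisher's exact test), and its passenger miR-138-1-3p had -0.53 (adjusted p = 0.0050, same exact test). miR-9-5p was higher in replicate 2 by 0.18 on the log2 scale and miR-128-3p by 0.07, with adjusted p of 2.9e-23 and 0.0024 in Fisher's exact test. The arms of miR-7 had opposite signs. miR-7-5p was lower in replicate 2 (-0.41, adjusted p = 5.6e-08, Fisher's exact test), while miR-7-1-3p, at 0.19, did not pass (adjusted p = 0.15, same exact test). Scaling by the median ratio of miRNAs at 10 RPM or more shifts every log2 ratio up by 0.10, since the ratio of factors is -0.10. It leaves 9 neural names past the adjusted limit, 6 higher in replicate 1 and 3 in replicate 2, and adds miR-7-1-3p (adjusted p = 0.014, Fisher's exact test). Over all names the same scaling turned a split of 184 higher in replicate 1 and 116 in replicate 2 into 131 and 153. The 8 names past the adjusted limit kept their signs under it.

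**Figure D4:**
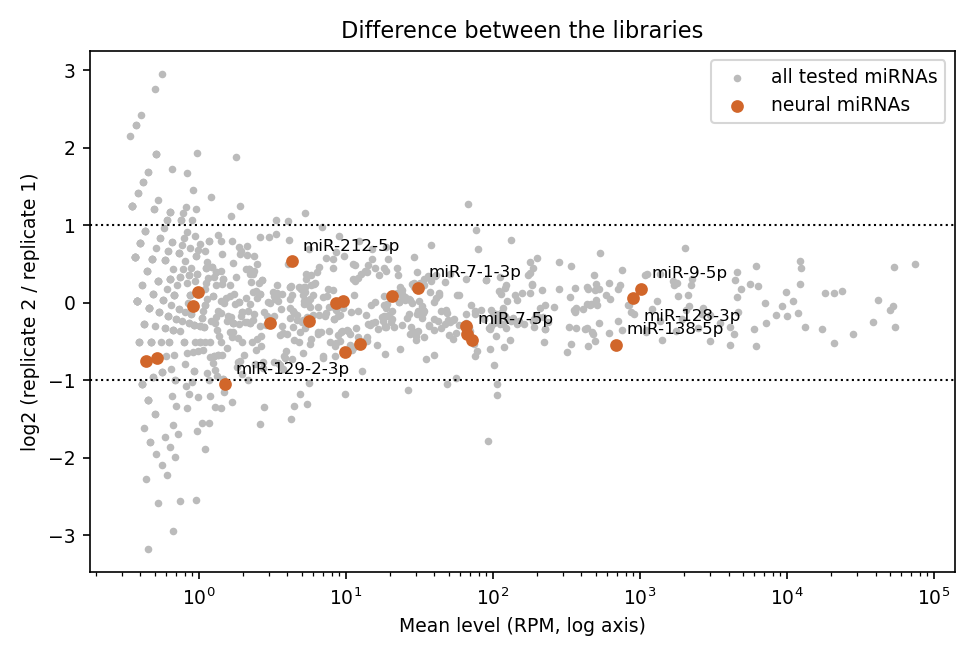
The log2 ratio of replicate 2 to replicate 1 against the mean level in RPM (log axis) for all 869 tested miRNAs (grey) and the 20 neural ones (orange), with dotted lines at a 2-fold difference. The neural points at a mean of at least 10 RPM lie between -0.54 and 0.19, and miR-129-2-3p, with 22 and 15 reads, lies just past the lower line.

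Other miRNAs known from neurons or glia had a median of the means of 0.731 RPM, beside 9.69 RPM for the 20 names above. Over all mature names it was 0.588 RPM. Of 20 further names, 19 had a row and 6 reached 10 RPM in both libraries, against 22.4% of all mature names. Those 6 were miR-149-5p (163 and 138 RPM), miR-135b-5p (112 and 132 RPM), miR-218-5p (41.3 and 44.5 RPM), miR-873-5p (40.2 and 33.0 RPM), the glial miR-338-3p (23.2 and 35.1 RPM) and miR-330-3p (22.9 and 24.8 RPM). The whole list summed to 422 and 426 RPM, less than miR-9-5p alone in each library. Of the neuronal names, miR-137 had 6 reads in each library, and miR-153-3p had 6 and 14. The melanocyte miRNAs differed, with 2766 and 2498 RPM for miR-204-5p but 3 and 2 reads for its relative miR-211-5p. They thus gave no clear check of the labelled cell type. Of 6 red cell and leukocyte miRNAs, 5 had a row and 1 reached 10 RPM, miR-486-5p. It had 171 and 200 RPM, above miR-149-5p, the highest of the further neural names. Of 4 muscle miRNAs 2 had a row, as did the liver miRNA miR-122-5p, and none of these reached 10 RPM, the highest mean being 1.09 RPM for miR-499a-5p.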

How the data were processed

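Small RNA libraries of 2 A375 samples, treated with DMSO, were used. The authors deposited RPM values for each pair of hairpin and mature name, and each of their columns sums to 1000000. CASAVA 1.8 and cutadapt 1.2.1 are named in the submitters' processing notes. The aligner, the miRNA annotation, the build and the handling of multiply matching reads are not given in the sources used. All values (100%) were whole multiples of the smallest in their column within 0.01 reads, so reads were recovered. Columns were matched by the sample descriptions, and 0 other value columns were present.

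Each mature name took the value of its highest copy, which left 77.6% and 78.3% of the deposited total. Fisher's exact tests covered names with at least 10 reads in sum and added 0.5 reads for folds. In simulated libraries 200 of 834 names were changed 3-fold, all drawn from names with a mean of 10 RPM or more. All 200 were recovered, and 2 of 634 unchanged names were called. This checks the computation under counting error only, and recovery at lower levels was not checked. Arm ratios on the log2 scale used a pseudocount of 1 RPM. Positions are from GENCODE 29 (GRCh38) and sequences from RefSeq (GRCh38.p14), matched by name. The members and lists were chosen with earlier results of these data known. Every member was named, with the further neural names at 10 RPM or more and the 2 names on either side of miR-9-5p. Other minima, scalings, pseudocounts, fold limits, summed copies and single libraries were tried, of which summed copies for the arm ratio and the antisense miR-219b-5p reads were added after the data were seen. Python 3.11.15, scipy 1.17.1 and pandas 2.3.3 were used.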

Additional observations from a re-analysis of the deposited data

How the results depend on the processing

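The count of 9 neural names at 10 RPM became 15 with a minimum of 1 RPM and 3 with 100 RPM, and was 9 or 10 under the other settings, including each library alone. Summed copies, which count many reads more than once, raised the share of the pool from 0.374% to 0.561%, and leaving the most abundant miRNA out of the total gave 0.413%. The share was 0.363% without replicate 1 and 0.385% without replicate 2. The library test called 40 names of all, 81 with a fold above 1.5 and 300 without a fold limit, and 34 to 40 under the other settings, with 0 neural names called among those. A copy share from reads pooled over libraries must lie between those of the 2 libraries. With n = 2 it could not move from their mean by 1 SD, so this setting was no check. The minimum of 10 reads in each library removed no neural family with copy-specific arms, but it left out miR-450a and miR-1185 among the others. Single libraries gave 51.7% and 68.75% for mir-129-2, and counting the antisense miR-219b-5p with mir-219a-2 lowered mir-219a-1 from 92.8% to 80.9%. No arm ratio changed sign. A pseudocount of 10 RPM moved 6 of 8 arm ratios by more than 1 SD, since it hides low arms. Summed copies moved 4 of 8, raising the log2 ratio of miR-7 from 1.03 to 2.58, of miR-128 from 3.46 to 4.43 and of miR-138 from 5.68 to 6.67, and that of miR-219a from -1.82 to -1.58. No paired analysis was possible because the series holds 1 group. Depth limits miR-129, miR-219a and miR-7-2-3p, whose arms rest on 5 to 79 reads.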

Other observations

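The excess of miR-138-5p reads on mir-138-1 over mir-138-2, 161 and 157, was close in both libraries to the number of passenger reads of mir-138-1, 158 and 156. In the families with a similar comparison the numbers were not close. mir-128-1 had an excess of 367 and 773 guide reads beside 902 and 921 passenger reads, and mir-7-1 an excess of 18 and 21 over mir-7-3 beside 314 and 512. This was noticed after the values were seen and was not tested.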
